A study of Mus musculus with 24 samples.

Results

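The SLC25 family, the mitochondrial carriers, was followed in the RNA of sorted brain endothelial cells, as the 47 genes whose symbol is Slc25a followed by a number, among 53465 genes in the count table. The cells came from 24 mice of the C57BL/6J strain, 12 of genotype Bmal1fl/fl (control) and 12 of genotype Bmal1fl/fl; Tie2cre (mutant), with 2 mice of each genotype at each of 6 Zeitgeber times (ZT2, 6, 10, 14, 18 and 22, hours after lights on) and 1 library per mouse. Controls and mutants both carry the floxed Bmal1 alleles and differ in the Cre transgene, which is driven by the Tie2 (Tek) promoter, active in endothelium and also in part of the blood cell lineage. Cells were sorted on CD31 from dissociated whole brain. Mice of both sexes were used for sequencing by the study's methods, the sex of each mouse is not in the labels used here, and no ages are given there.

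Most mitochondrial carriers, though not Slc25a46 of the outer membrane, are small proteins of the inner mitochondrial membrane that exchange metabolites between cytosol and matrix. They let ADP and phosphate in and ATP out, connect the malate-aspartate shuttle and the citrate export for lipid synthesis, and bring in iron, coenzymes, amino acids and acylcarnitines. Brain endothelium is known for a higher mitochondrial content than most other endothelium. BMAL1, encoded by Arntl, is the clock transcription factor that binds E-boxes (CACGTG) together with CLOCK. The comparison of genotypes addresses which transcripts of these cells depend on the endothelial clock, and the 6 times address which of them follow a daily rhythm.

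E-boxes are shown first because the mutation is aimed at BMAL1, a factor that binds them. The 250 bases before a RefSeq transcript start (GRCm38.p6) were searched for CACGTG, which reads the same on both strands, and on both strands for GCGCA and GCGC with any base between them, a motif of NRF1, a regulator of nuclear genes for mitochondrial proteins. Windows were at hand for 36 members. CACGTG was found in 8 of 46 member windows (17.4%), against 6.02% of 32851 windows of all genes. The windows of transcripts of 1 gene can overlap, and those 8 hold 7 different E-boxes, since a pair of Slc25a14 windows share theirs. They belong to 7 members, Slc25a1, Slc25a13, Slc25a14, Slc25a15, Slc25a31, Slc25a33 and Slc25a36. The NRF1 motif was found in 2 member windows (4.35%), of Slc25a3 and Slc25a31, against 3.74% of all. A match of letters is a description and no evidence of binding. Windows of 3 well read members with an E-box and of the phosphate carrier are printed 5′ to 3′ on the gene's strand, with the motif in capitals.
Slc25a1 (citrate), chr16:17928220-17928469, minus strand: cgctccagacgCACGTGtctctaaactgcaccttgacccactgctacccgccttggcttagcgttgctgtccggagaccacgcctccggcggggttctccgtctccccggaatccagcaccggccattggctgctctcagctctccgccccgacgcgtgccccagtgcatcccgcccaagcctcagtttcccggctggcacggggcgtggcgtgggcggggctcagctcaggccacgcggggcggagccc
Slc25a33 (pyrimidine nucleotides), chr4:149774268-149774517, minus strand: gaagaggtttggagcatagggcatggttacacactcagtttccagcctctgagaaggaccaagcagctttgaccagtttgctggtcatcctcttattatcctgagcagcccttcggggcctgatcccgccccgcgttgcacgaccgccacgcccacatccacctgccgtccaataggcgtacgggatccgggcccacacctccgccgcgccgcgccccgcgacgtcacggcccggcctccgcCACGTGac
Slc25a36 (pyrimidine nucleotides), chr9:97111042-97111291, minus strand: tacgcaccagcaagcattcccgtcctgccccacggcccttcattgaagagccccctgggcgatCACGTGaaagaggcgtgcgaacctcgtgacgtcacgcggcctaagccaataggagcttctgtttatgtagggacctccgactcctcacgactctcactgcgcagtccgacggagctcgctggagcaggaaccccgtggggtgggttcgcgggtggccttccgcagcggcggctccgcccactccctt
Slc25a3 (phosphate, NRF1 motif), chr10:91123968-91124217, minus strand: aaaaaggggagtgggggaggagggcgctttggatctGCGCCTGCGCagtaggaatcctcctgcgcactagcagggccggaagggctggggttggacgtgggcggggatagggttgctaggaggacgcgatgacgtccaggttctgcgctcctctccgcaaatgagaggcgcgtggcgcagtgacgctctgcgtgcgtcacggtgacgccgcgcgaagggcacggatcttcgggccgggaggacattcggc
The first base of the E-box lies 239 bases before the RefSeq start in Slc25a1, 8 bases in Slc25a33 and 187 bases in Slc25a36. In GENCODE M21, used below for exon lengths, the Slc25a33 gene begins at base 149774277, so that E-box lies within it. The genotype differences of the 6 tested members with an E-box stand with the genotype comparison.

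Deposited totals lay between 6136404 and 6648311 reads per library, after the authors had brought the libraries to similar totals, so the sequencing depth before that step is not in these values. All 47 members together took between 5829 and 8194 reads of a library, or 0.0914% to 0.128% of its total. Arntl had 195 ± 186 reads in controls and 226 ± 74.3 in mutants (mean ± SD, n = 12 each). Its total includes exons that the deletion leaves in place, so it does not check the genotype. Nr1d1, a direct BMAL1 target, was lower in the mutants, with a log2 fold change of −2.26 ± 0.34 (SE, adjusted p = 0.000659, edgeR). The 8 libraries of ZT6 and ZT18 have library numbers of their own, in 1 consecutive run, and differed from the other 16 in their make-up. Of those 16, 3 libraries (control ZT2 replicate 1 and both mutants of ZT14) have numbers apart from the run of the other 21. Mitochondrially encoded genes took 2.68% to 3.90% of the reads of the 8 ZT6 and ZT18 libraries and 5.78% to 17.4% of those of the other 16. The summed reads of 6 microglia markers lay between 962 and 1548 in the 8 and between 8516 and 22980 in the 16. Summed reads of 8 endothelial markers, Pecam1 (CD31) and Cdh5 among them, lay between 109329 and 116179 in those 8 libraries and between 73422 and 102817 in the others. The labelled cell type is thus present in all 24 libraries, with reads of other brain cells in unequal amounts. In such bulk samples, fewer cells of a type and less RNA per cell cannot be told apart.

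Levels of the carriers covered a wide range. Of the 47 members, 41 reached 5 reads in 6 or more mice of a genotype and were tested, and 21 had a control mean of 100 reads or more. Slc25a41, Slc25a48 and Slc25a54 had 0 reads in all 24 libraries, where counting error alone allows up to 3 reads in each. Slc25a43 had 6 reads in all and Slc25a21, the oxodicarboxylate carrier, 40. Slc25a31, the ADP/ATP carrier of the testis, had 14 reads, all in 1 control library. Levels of different genes were compared as reads per kb of exon, over the union of a gene's exons in GENCODE M21 (GRCm38).

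Slc25a4 and Slc25a5 (ANT1 and ANT2), which exchange ADP for ATP, had the highest levels per kb of the 47 genes. Slc25a4 (chr8:46206797-46211284, minus strand) stood at 414 ± 103 reads per kb in controls and 357 ± 80.3 in mutants (SD, n = 12 each). Slc25a5 (chrX:36795651-36798807, plus strand) stood at 307 ± 60.01 and 294 ± 52.2. The level per kb of Slc25a4 was above that of Slc25a5 in 19 of 24 libraries. Their open reading frames, both of 894 bases in the annotated transcripts, are 77.4% identical in an alignment of bases, so reads can be told apart over much of their length. The processed pseudogene Slc25a5-ps was listed with 0 or 1 read in every library.

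Slc25a3, the phosphate carrier that also brings copper to cytochrome c oxidase, followed with 140 ± 12.2 reads per kb in controls. It varied least of the tested members among control mice, with a coefficient of variation of 8.67% in its reads. Controls had 653 to 903 reads (median 759) and mutants 668 to 1134 (median 829). Together the ADP/ATP carriers and the phosphate carrier took between 36.2% and 51.6% of the reads per kb of the 47 genes in a library. Below them the order is not resolved: Slc25a24 (ATP-Mg/phosphate) stood at 81.2 ± 31.9, Slc25a33 at 80.6 ± 28.4 and Slc25a1 at 80.2 ± 25.4 reads per kb in controls, closer to each other than their SDs. Slc25a39, a glutathione carrier, at 74.4 ± 23.6, the calcium-regulated ATP-Mg carrier Slc25a23 at 69.3 ± 15.4 and the NAD carrier Slc25a51 at 66.6 ± 10.6 were within the same spread.

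**Figure D1:**
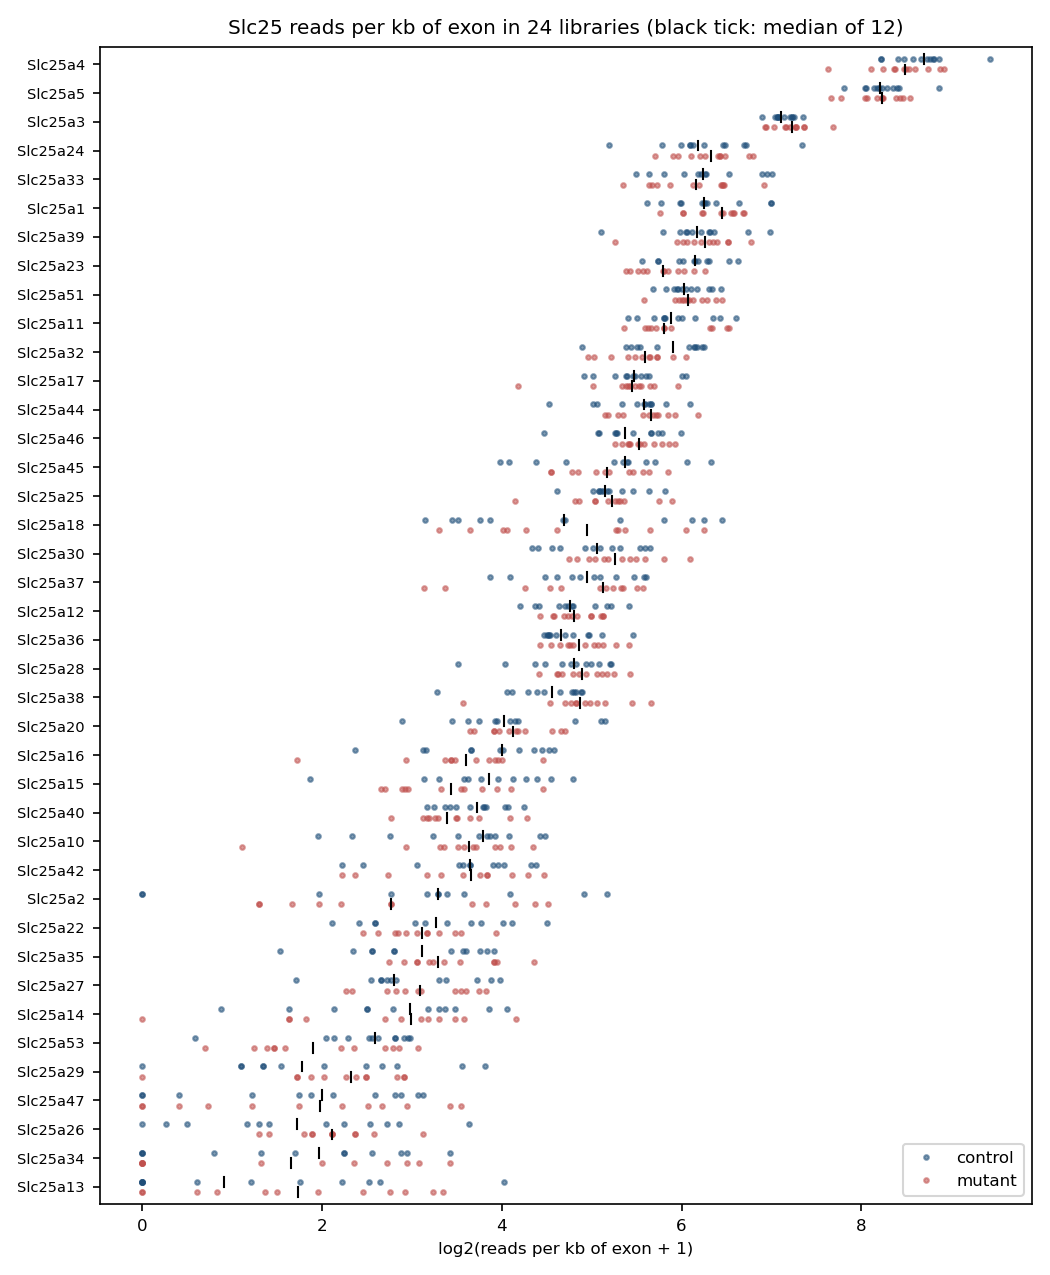
Reads per kb of exon of 40 tested Slc25 genes, on a log2 scale after adding 1, for each of 12 control (blue) and 12 mutant (red) libraries, with a black tick at the median. The medians of Slc25a4, Slc25a5 and Slc25a3 lie above those of all others drawn, single libraries of Slc25a3 overlap those of other genes, and the ranges of the genotypes overlap for every gene.

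By substrate, the 3 ADP/ATP carriers made up 35.8% of the control reads per kb of the 47 genes. The 9 carriers of nucleotides, coenzymes and cofactors made up 16.3%. ATP-Mg/phosphate carriers made up 9.30%, iron and glutathione carriers 7.10%, and the carriers of aspartate, glutamate, malate and oxoglutarate 6.90%. Amino acid carriers made up 4.78%, the uncoupling-protein-like carriers 2.39% and the carnitine and acylcarnitine carrier Slc25a20 0.884%. The uncoupling proteins Ucp1, Ucp2 and Ucp3 belong to the family under other symbols and are not in these shares. Reads of Ucp2 are given below with the other genes of mitochondrial transport. Of the partners in the malate-aspartate shuttle, the oxoglutarate carrier Slc25a11 had 134 ± 35.6 reads in controls, the aspartate-glutamate carrier Slc25a12 (aralar) 202 ± 54.0 and its liver-type relative Slc25a13 (citrin) 10.5 ± 16.7. On the scale per kb Slc25a11 stood at 63.1 ± 16.8, Slc25a12 at 27.5 ± 7.35 and Slc25a13 at 2.76 ± 4.40.

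No carrier differed between the genotypes at an adjusted p under 0.05 (edgeR's quasi-likelihood test with time point as a factor, 41 members tested, Benjamini-Hochberg over all 15493 tested genes). Among all tested genes 42 did, 0.271%. At an unadjusted p under 0.05 there were 2 of 41 members, 4.88%, against 6.95% of all genes. DESeq2 gave 0 members past adjustment and 3 at that unadjusted threshold, and the shares of all genes in that fit are not given here. The median log2 fold change of the members, mutant over control, was 0.0022, beside 0.0033 over all genes, with 22 members above 0 and 19 below. The median SE of a member was 0.19 on the log2 scale, and 3 of 41 members had a value beyond 0.5 in either direction, as did 14.5% of all tested genes. Control and mutant ranges overlapped for each of the 47, and they were apart for 0% of all tested genes, so the overlap does not set the carriers off. Of the marker lists of other cells, the 6 red blood cell markers had a median log2 fold change of −0.38 (3 at an unadjusted p under 0.05), the 6 oligodendrocyte markers of −0.37 (2) and the 6 astrocyte markers of −0.22 (2). No marker of these lists passed adjustment, and their part in the genotype values was not tested.

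Slc25a23 had the smallest p. This carrier brings ATP-Mg into the matrix in exchange for phosphate and is regulated by calcium. Controls had 245 to 517 reads with a median of 369.5, and mutants had 216 to 400 with a median of 289.5. The log2 fold change was −0.33 ± 0.11 (SE, unadjusted p = 0.00516, adjusted p = 0.371). It was −0.36 ± 0.19 within the ZT6 and ZT18 libraries and −0.32 ± 0.14 within the others. At ZT2 and ZT10 the genotypes also carried different i5 library indices. At ZT2 the controls had 412 and 406 reads and the mutants 300 and 290, and at ZT14 the controls had 370 and 517 and the mutants 339 and 324. At ZT10 the order was mixed, with 337 and 245 reads in controls and 216 and 400 in mutants. Its relatives Slc25a24 and Slc25a25 had log2 fold changes of 0.0011 ± 0.13 and −0.058 ± 0.14.

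Slc25a32, the carrier of folate and flavin cofactors, had 345 ± 97.8 reads in controls and 282 ± 64.0 in mutants. Its log2 fold change was −0.28 ± 0.11 (unadjusted p = 0.0214, adjusted p = 0.578). The value was −0.56 ± 0.19 within ZT6 and ZT18 (unadjusted p = 0.00625) and −0.13 ± 0.13 within the others, and the difference between these values had an unadjusted p of 0.0779. Over all times, the unadjusted p of Slc25a32 was above 0.05 with cosine and sine terms for time. It was also above 0.05 when control ZT18 replicate 1, control ZT22 replicate 1 or mutant ZT18 replicate 1 was left out. At ZT6 the controls had 458 and 426 reads and the mutants 317 and 297. Slc25a38, which supplies glycine for heme synthesis, came next. Its log2 fold change was 0.46 ± 0.23 (unadjusted p = 0.0586, adjusted p = 0.744), with 24 to 79 reads in controls and 30 to 136 in mutants.

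The genotypes were then compared for the carriers with the highest levels. Slc25a4 ranged from 696 to 1616 reads in controls with a median of 975, and from 464 to 1138 in mutants with a median of 842.5. Its log2 fold change was −0.22 ± 0.11 (unadjusted p = 0.0673, adjusted p = 0.764). For Slc25a5 the value was −0.06 ± 0.10 and for Slc25a3 0.08 ± 0.08. Among the tested members with an E-box window, the log2 fold changes were 0.06 ± 0.15 for Slc25a1, −0.15 ± 0.19 for Slc25a33, 0.13 ± 0.13 for Slc25a36, −0.46 ± 0.28 for Slc25a15 (ornithine), −0.15 ± 0.57 for Slc25a14 and 0.85 ± 0.90 for Slc25a13. The latter pair rest on means under 20 reads. None of the 6 had an unadjusted p under 0.05, beside 6.95% of all genes, so the count does not set them apart.

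**Figure D2:**
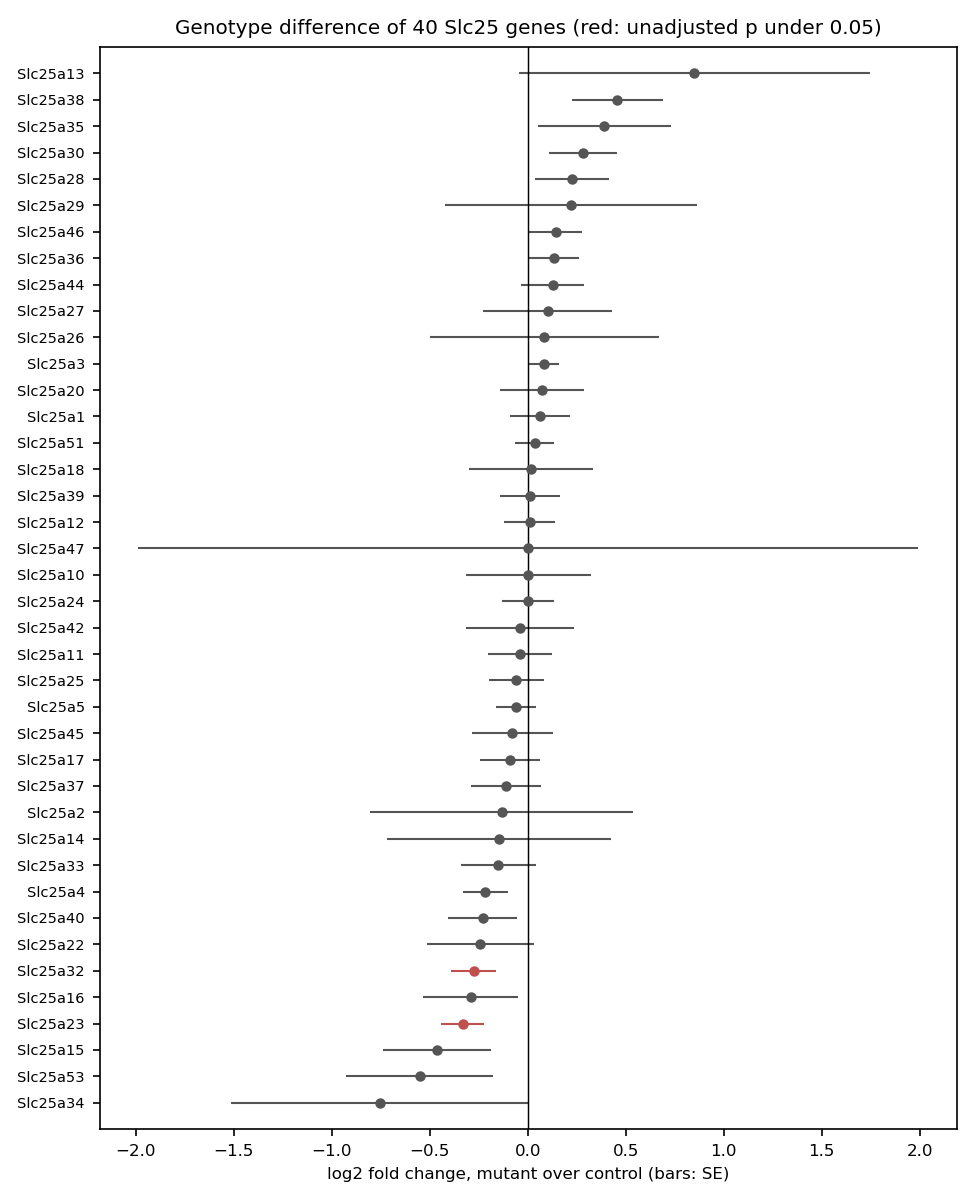
Log2 fold change of 40 tested Slc25 genes, mutant over control, with bars for the SE of the fit and red points for the 2 genes with an unadjusted p under 0.05. The values run from −0.75 (Slc25a34) to 0.85 (Slc25a13), both of them genes with wide bars.

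Within the 8 libraries of ZT6 and ZT18, 2 members had an unadjusted p under 0.05, Slc25a32 and Slc25a34, against 5.38% of all genes, and 0.00645% of all genes passed adjustment. For Slc25a34 that p compares 4 libraries with 0, 4, 0 and 2 reads with 4 at 0, in a gene that could be tested only through the other libraries, and it is no support. Within the other 16 libraries there were 3, Slc25a30, Slc25a23 and Slc25a3, against 6.08%, and 0.2% of all genes passed adjustment. No member passed in either set. Slc25a30, an uncoupling-protein-like carrier, had a log2 fold change of 0.54 ± 0.20 in the 16 libraries and −0.21 ± 0.28 in the 8. The difference of the 2 values had an unadjusted p of 0.0416, and Slc25a30 was the only member under 0.05 in that test, against 4.38% of all genes, with 0% of all genes past adjustment. Slc25a1 followed with a difference of −0.60 ± 0.31 (unadjusted p = 0.0607) and Slc25a3 with −0.30 ± 0.16 (unadjusted p = 0.064).

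No carrier was called rhythmic in controls or mutants at the study's threshold of q under 0.6 in meta2d, which combines JTK_CYCLE and Lomb-Scargle at 24 h. Among all genes 0.31% were called in controls and 0.0387% in mutants. At an unadjusted p under 0.05 there were 2 members in controls, 4.88%, against 2.43% of all genes, and 0 in mutants, against 2.27%. These were Slc25a5 and Slc25a10, the dicarboxylate carrier that exchanges malate and succinate for phosphate.

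Slc25a5 had an unadjusted p of 0.0169 in controls and 0.995 in mutants, and in an edgeR cosinor the control value was 0.143. When each control library was left out in turn, the control value lay between 0.000758 and 0.0782 and was above 0.05 in 5 of 12 cases. Under 6 other settings, that cosinor included, it was above 0.05 in 5 and as high as 0.233. Among controls, ZT2 gave 534 and 553 reads, ZT6 gave 561 and 511, ZT10 gave 491 and 475, ZT14 gave 366 and 430, ZT18 gave 462 and 435, and ZT22 gave 480 and 765. They were lowest at ZT14, where both mice were below all other controls. In mutants the reads at ZT14 were 613 and 567, those of the first mouse the highest of that genotype, and at ZT6 they were 472 and 331. A fitted cosine peaked at ZT1.34 in controls with a relative amplitude of 17.3%, and at ZT14.9 in mutants with 12.1%. The test of the difference in rhythm gave an unadjusted p of 0.0418 and an adjusted p near 1. With single libraries left out that unadjusted p lay between 0.0231 and 0.103 and was above 0.05 in 8 of 24 fits. The mutants of ZT14 are among the 3 libraries with numbers apart, and without those 3, a setting added after the data were seen, the unadjusted p was 0.184. That p was also above 0.05 in a DESeq2 likelihood ratio test and without ZT6 and ZT18, so in 3 of 7 other settings.

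Slc25a10 had an unadjusted p of 0.0236 in controls. With single libraries left out it lay between 0.00609 and 0.110 and was above 0.05 in 6 of 12 cases, and in an edgeR cosinor it was 0.0452. Of 6 other settings, that cosinor included, 3 gave a value above 0.05, up to 0.108. These were cosinors with the library number series as a covariate, with a replicate block and without ZT6 and ZT18. Of its control values, ZT2 held 47 and 74 reads, ZT6 held 36 and 71, ZT10 held 46 and 29, ZT14 held 20 and 10, ZT18 held 14 and 43, and ZT22 held 55 and 49. The lowest values thus fell at ZT14 and ZT18, in a gene with a control mean of 41.2 reads. In mutants it ranged from 4 to 67 reads, and the lowest library was at ZT22. Slc25a42, which brings coenzyme A into the matrix, came next in controls (unadjusted p = 0.0564), with 87 and 119 reads at ZT6 and 27 and 22 at ZT18, the times with library numbers of their own. Its p lay between 0.00345 and 0.231 with single libraries left out and between 0.0211 and 0.831 under the other settings. In mutants the unadjusted p was 0.135 for Slc25a12 and 0.352 for Slc25a44, a carrier of branched-chain amino acids.

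The difference in rhythm between the genotypes (edgeR, genotype by 24 h cosine and sine terms tested jointly) had an unadjusted p under 0.05 in 2 of 41 members, 4.88%, against 4.26% of all genes, and 0% of all genes passed adjustment. The members were Slc25a5 and Slc25a20. Slc25a20, which moves acylcarnitines in for fatty acid oxidation, had an unadjusted p of 0.0495. With single libraries left out it lay between 0.0147 and 0.138 and was above 0.05 in 17 of 24 fits. The control mice of ZT2 had 69 and 132 reads, those of ZT6 162 and 167, those of ZT10 48 and 60, those of ZT14 31 and 55, those of ZT18 70 and 83, and those of ZT22 78 and 81. In mutants the reads stayed between 56 and 121 at all times. The 2 controls of ZT6 were above all other libraries, and ZT6 is one of the times with library numbers of its own. Without the ZT6 and ZT18 libraries, a setting added after the data were seen, the unadjusted p was 0.134. It was also above 0.05 with the i5 index as a covariate, so in 2 of 7 other settings. Slc25a30 was next at an unadjusted p of 0.0515. At ZT10 it had 103 and 92 reads in controls and 307 and 251 in mutants, which is the widest gap of its 6 times. At ZT18 it had 216 and 178 reads in controls and 202 and 157 in mutants. Over the 4 other times alone its p was 0.0111, and without the 3 libraries with numbers apart it was 0.0072. Fits that each left out 1 library gave 0.0166 to 0.162, under 0.05 in 7 of 24, and of the other settings the highest value was 0.0619, with the i5 index as a covariate.

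**Figure D3:**
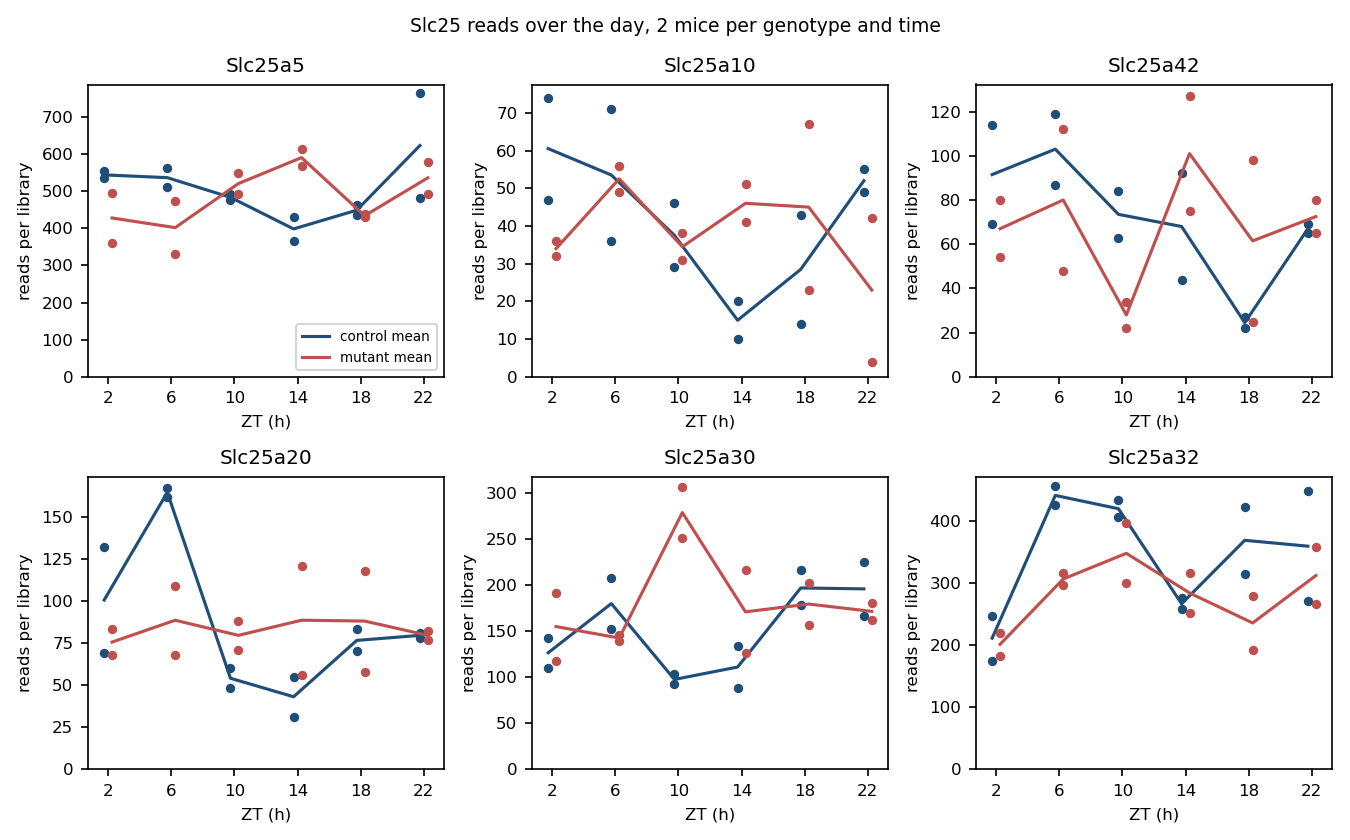
Reads per library over Zeitgeber time for 6 Slc25 genes in control (blue) and mutant (red) mice, with a point for each mouse and a line through the means of 2 mice. Control Slc25a5 and Slc25a10 are lowest at ZT14, and control Slc25a20 is highest at ZT6, where both mice have more than 160 reads.

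The ZT6 and ZT18 libraries were compared with the other 16 because their times and their library numbers cannot be told apart. Of 41 members, 1 was higher in them at an adjusted p under 0.05 (5.86% of all genes were) and 4 were lower (10.9% of all genes were). One of these, Slc25a34, had enough reads to be tested only through the other 16 libraries, so its count among the lower members is no support. The median log2 difference of the members was −0.07, beside −0.0061 over all genes. Lower were Slc25a34, Slc25a18, Slc25a37 and Slc25a23, and higher was Slc25a24.

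Slc25a34, a carrier of unsettled substrate, had 0, 4, 0 and 2 reads in the control libraries of ZT6 and ZT18 and 0 in all 4 mutant ones. In the other 16 libraries it ranged from 0 to 26 reads with a median of 12. The fitted log2 difference, −4.00, rests on a mean of 0.75 reads in the 8 libraries and is given as a description. It was −2.97 in controls alone, where it was not called, and −6.67 in mutants alone, and with single libraries left out it lay between −4.98 and −3.83. Slc25a18, a glutamate carrier (GC2) known from astrocytes, ranged from 15 to 47 reads in the 8 libraries (median 25) and from 19 to 165 in the 16 (median 75.5), a log2 difference of −1.65 ± 0.35 (adjusted p = 0.000783). In controls alone it was −1.66, and the call was lost. Slc25a37 (mitoferrin 1), which brings iron into mitochondria and is best known from red cell precursors, ranged from 47 to 160 reads (median 103) against 129 to 286 (median 223.5). Its log2 difference was −1.08 ± 0.20 (adjusted p = 0.000107), and the ranges of the sets share only the values from 129 to 160.

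Slc25a23 was lower, with a log2 difference of −0.35 ± 0.12 (adjusted p = 0.0425), at 278 ± 51.9 against 354 ± 80.0 reads (SD). The call did not hold with PORT's normalization alone (−0.30), with library sizes without mitochondrially encoded genes (−0.34), in controls alone (−0.33), in mutants alone (−0.36) or without the 3 libraries with numbers apart (−0.34), and it was lost in 16 of 24 fits that each left out 1 library. Slc25a24 was higher by 0.53 ± 0.15 (adjusted p = 0.0112), at 343 ± 105 against 240 ± 51.9 reads. At ZT18 the controls had 553 and 353 reads and the mutants 378 and 366, and at ZT6 the controls had 236 and 357 and the mutants 291 and 211. The high values were thus those of ZT18, while the ZT6 values lay within the range of the other times except for the control of 357 reads. The log2 difference was 0.70 in controls alone and 0.36 in mutants alone, called in neither. Without the ZT18 control of 553 reads it was 0.39 and the call was lost. Slc25a25, the related ATP-Mg carrier, stood next to the threshold at 0.40 ± 0.15 (adjusted p = 0.0542), and Slc25a4 at −0.32 ± 0.12 (adjusted p = 0.0646). The 3 ATP-Mg/phosphate carriers thus differed in direction, with Slc25a23 lower, Slc25a24 higher and Slc25a25 not called. With the index read on the library's i5 side as a covariate, Slc25a18 was the only one of the 5 still called, at −1.66. Slc25a34 then stood at −3.53, Slc25a37 at −0.74, Slc25a24 at 0.45 and Slc25a23 at −0.08. That index is shared by all ZT6 and ZT18 libraries and by the controls of ZT2 and ZT10.

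Markers of other cell types moved in the same comparison. All 6 microglia markers, 5 of 6 astrocyte markers, all 6 oligodendrocyte markers, all 6 neuron markers and 5 of 6 red blood cell markers were lower in the ZT6 and ZT18 libraries at an adjusted p under 0.05, with median log2 differences of −3.88, −1.59, −1.70, −2.47 and −0.62. Of 8 endothelial markers 5 were higher, with a median of 0.41, and of 6 markers of pericytes and smooth muscle 5 were higher, with a median of 0.51. Among all genes 10.9% were lower and 5.86% higher. Mog had 0 reads in all 8 libraries and could be tested only through the other 16, so its count among the lower markers is no support. Mag, Rbfox3 and Tubb3 were also near the floor there, with means of 3.9, 1.9 and 1.75 reads. Summed astrocyte marker reads lay between 4544 and 7507 in the 8 libraries and between 10379 and 20672 in the 16, summed oligodendrocyte marker reads between 2210 and 4458 and between 5215 and 17961, summed neuron marker reads between 68 and 134 and between 156 and 856, and summed red blood cell marker reads between 1492 and 4915 and between 2415 and 9018. No list of markers was at 0. Their part in the 5 carrier differences was not tested.

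**Figure D4:**
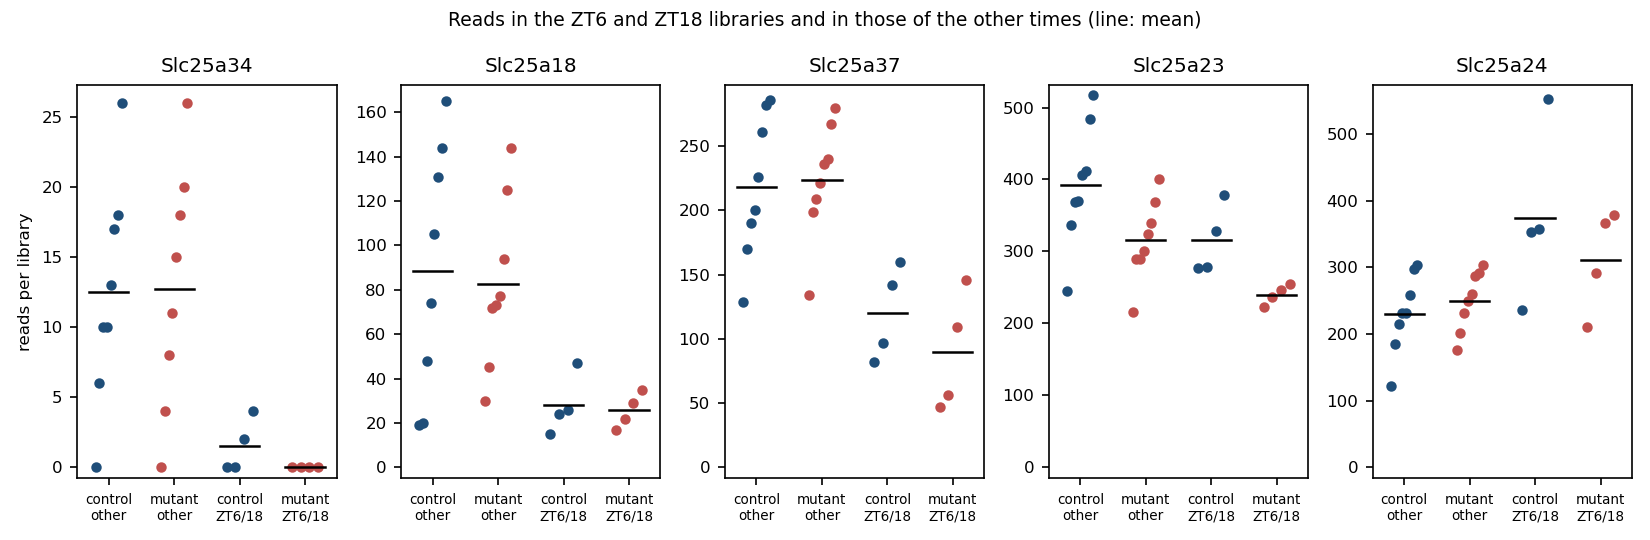
Reads per library of the 5 Slc25 genes called between the ZT6 and ZT18 libraries and those of the other times, split by genotype, with a line at the mean. Slc25a34 is at 0 in all mutant libraries of ZT6 and ZT18, and the ranges of the sets overlap for each gene, as for all but 2.58% of tested genes.

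Carriers known from other cell types were also set beside the marker sums within each set of libraries, where the sets' difference plays no part. Over the 16 libraries, log2 reads of Slc25a18 and of the astrocyte sum had a Pearson's r of 0.30 (permutation p = 0.257) and a Spearman's rho of 0.30 (permutation p = 0.255), and r was 0.03 without the 2 libraries farthest from the median of the sum. Slc25a37 and the red blood cell sum had an r of 0.57 (permutation p = 0.0217, adjusted over 12 relations 0.261) and a rho of 0.43 (permutation p = 0.098), with r at 0.33 without the 2 farthest libraries, so that the relation in this set rests on them. Over the 8 libraries the same pair had an r of 0.61 (permutation p = 0.111) and a rho of 0.52 (permutation p = 0.195), and there r was 0.87 without the 2 farthest libraries. For the other mitoferrin, Slc25a28, which most tissues use, r with the red blood cell sum was −0.17 over the 16 libraries (permutation p = 0.51; rho −0.09, permutation p = 0.729). For the glutamate carrier Slc25a22 and the neuron sum r was 0.41 (permutation p = 0.119; rho 0.44, permutation p = 0.0885), and for the brain uncoupling-protein-like carrier Slc25a27 −0.11 (permutation p = 0.694; rho 0.05, permutation p = 0.855). Without the 2 farthest libraries these values of r were −0.28, 0.40 and −0.17. Over the 8 libraries of ZT6 and ZT18 the values of r were 0.18 for Slc25a18, −0.05 for Slc25a28, 0.07 for Slc25a22 and 0.35 for Slc25a27, with rho at −0.05, 0.14, 0.17 and 0.33 (permutation p of 0.391 or more for each). There they were 0.05, 0.49, 0.51 and 0.76 without the 2 farthest libraries. Slc25a37 and the microglia sum had an r of 0.24 over the 16 libraries (permutation p = 0.375; rho 0.16, permutation p = 0.549), which was −0.21 without the 2 farthest, and of −0.35 over the 8 (permutation p = 0.409; rho −0.43, permutation p = 0.298), which was −0.82 without the 2 farthest. Of the 12 relations, none had an adjusted p under 0.05. Slc25a28 ranged from 58 to 158 reads in the ZT6 and ZT18 libraries and from 39 to 139 in the others, Slc25a22 from 27 to 70 and from 20 to 130, and Slc25a27 from 15 to 48 and from 9 to 58, and none of these 3 differed between the sets at an adjusted p under 0.05.

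Genes that work beside the carriers gave the following counts. Of 24 other genes of mitochondrial transport, 22 were tested, 0 differed between genotypes at an adjusted p under 0.05 (edgeR) and 2 had an unadjusted p under 0.05, beside 0.271% and 6.95% of all genes, and the median log2 fold change was −0.05. They include the family members under other symbols. Ucp2 had 1788 ± 309 reads in controls and 1851 ± 336 in mutants. In reads, not divided by exon length, these means were above those of any gene of an Slc25a symbol. Ucp1 and Ucp3 were too low to test, and Mtch1 had 413 ± 116 and 382 ± 77.2. The 2 at an unadjusted p under 0.05 were the subunits of the mitochondrial pyruvate carrier. Mpc1 had a log2 fold change of −0.44 ± 0.17 (unadjusted p = 0.0139, adjusted p = 0.529) and Mpc2 of −0.50 ± 0.18 (unadjusted p = 0.00915, adjusted p = 0.489). Mpc1 was also lower in the ZT6 and ZT18 libraries, with a log2 difference of −0.86 (adjusted p = 0.000518), where Mpc2 stood at 0.02. The sideroflexin Sfxn5 was lower there too, with a log2 difference of −1.202 (adjusted p = 5.92e-07). These were the 2 of 22 called lower between the sets, and 0 were higher, beside 10.9% and 5.86% of all genes. The porins Vdac1, Vdac2 and Vdac3 of the outer membrane had genotype values of −0.09, −0.06 and 0.19, none past the threshold.

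Of 15 partner enzymes, 14 were tested and 0 differed between genotypes at an adjusted p under 0.05 (edgeR; 2 at an unadjusted p under 0.05, beside the same shares of all genes), with a median of −0.11. Among those of heme synthesis, Fech had a log2 fold change of −0.32 ± 0.13 (unadjusted p = 0.0162, adjusted p = 0.554) and Alas2, which also stands in the red blood cell list, −0.42 ± 0.18 (unadjusted p = 0.0262, adjusted p = 0.616), while Alas1 had 1692 ± 393 reads in controls and 1506 ± 382 in mutants. The 6 red blood cell markers had genotype values between −0.84 and −0.27, and their summed reads lay between 2244 and 9018 in controls and between 1492 and 7009 in mutants. The part of red cells in the values of Fech and Alas2 was not tested. In the ZT6 and ZT18 libraries Cpt1a, the gate of fatty acid oxidation, was higher by 0.32, and Mdh1, Got1 and Alas2 were lower, with log2 differences of −0.85, −0.72 and −0.59, all at an adjusted p under 0.05. So 1 of 14 was higher and 3 were lower, beside 5.86% and 10.9% of all genes. Of 9 regulators of mitochondrial biogenesis, 0 differed between genotypes in edgeR, adjusted or unadjusted, with a median of −0.05. Between the sets Gabpa was higher by 0.31 (adjusted p = 0.0207) and Ppargc1a lower, at −1.32 (adjusted p = 0.0298), so 1 of 9 each way, beside the same shares of all genes.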

How the data were processed

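RNA of endothelial cells sorted on CD31 (10000 to 20000 cells from a single mouse by the labels) was analysed in 24 libraries. The authors aligned reads of strand-specific libraries to GRCm38 with STAR 2.5.3a, merged lanes with SAMtools 1.3.1, and normalized and quantified genes with PORT. The deposited values are whole-number gene counts brought to similar totals by the authors. Whether counting used the strand is not given in the sources used here, so antisense transcripts cannot be told apart with certainty. All columns were mapped to samples by their names.

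Genes that reached 5 reads in 6 or more mice of a genotype were tested, which is the read filter of the study. Genotype, the ZT6 and ZT18 libraries and differences in rhythm were tested in R 4.3.3 by edgeR, version 4.0.16 (scaling factors by TMM from 0.873 to 1.04, quasi-likelihood fit, Benjamini-Hochberg over 15493 genes). The common dispersion was 0.179. Rhythm was tested with meta2d rewritten in Python 3.11.15 with NumPy 2.4.6 and SciPy 1.17.1. DESeq2 1.42.0 was an alternative. The scripts were tested on simulated counts with a lower dispersion than that of these data and with large changes only. That run therefore does not show how small a change could be found here. Correlations used log2 of TMM-scaled reads plus 1 and 100000 permutations, two-sided, with each marker list summed. P-values rest on the spread between libraries of different mice, of which there were 2 per genotype and time. In the ZT6 and ZT18 comparison that spread also holds differences among time points. Its p-values cannot separate the times from the library numbers. For the correlations, libraries of a set were permuted across genotypes and times.

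Members and lists were chosen with earlier results of these data known. Named genes were the 6 members highest per kb in controls, the members past a threshold and the 3 with the smallest p in each test, and the carriers set beside markers. The values of 1 member are not reported here. Sequences came from RefSeq (GRCm38.p6) and transcripts from GENCODE M21. Libraries of 1 genotype and time differed well beyond counting error in every pair (chi-square per degree of freedom of 9.60 or more), so none was a duplicate. Relations with markers included Slc25a37 and microglia, added after the data were seen.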

Additional observations from a re-analysis of the deposited data

Results flagged for a closer look

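Within each genotype, the named members were checked in the 8 libraries of the other times and in the 4 of ZT6 and ZT18 for 1 library far from the rest, over 87 sets, of which 5 had one. The test used (Dixon's gap over range, with 95% critical values set by the number of libraries) is built to pick out about 1 set in 20 by chance. Slc25a4 had 1616 reads in a control of ZT22 (replicate 2) against 794 to 1095 in the other 7 libraries of its set. Slc25a5 had 765 reads in the same library against 366 to 553. Slc25a1 had 274 reads in a control of ZT2 (replicate 1) against 104 to 166. Slc25a10 had 4 reads in a mutant of ZT22 (replicate 1) against 31 to 51. Slc25a22 had 86 reads in a mutant of ZT14 (replicate 1) against 31 to 53. The 2 ADP/ATP carriers stood out in the same mouse.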

How the results depend on the processing

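No member passed an adjusted p under 0.05 for genotype or for the difference in rhythm under any alternative run, single libraries left out included. Fold changes of Slc25a23, Slc25a32 and Slc25a38 kept their direction under 11 other settings and in 24 fits that each left out 1 library. The unadjusted p of Slc25a32 did not stay under 0.05 in all of them. With cosine and sine for time the count at that threshold was 2, with Slc25a38 in place of Slc25a32. The replicate numbers of the 2 genotypes did not pair the mice (correlations of the deviations between −0.01 and 0.01), and a replicate block gave 0 members past adjustment and 3 at an unadjusted p under 0.05 for genotype, and likewise 0 and 3 for the difference in rhythm. With single libraries left out, 1 to 4 members had an unadjusted p under 0.05 for genotype, with 4 without control ZT10 replicate 1 and 1 without mutant ZT18 replicate 1.

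For the difference in rhythm, the 2 members at an unadjusted p under 0.05 became 4 with PORT's normalization alone and 1 with the i5 index as a covariate, and 0 to 4 with single libraries left out. In 17 of 24 such fits the count moved by over 1.5 times, and without mutant ZT2 replicate 2 it was 0. In controls, 0 members had an unadjusted p under 0.05 in an edgeR cosinor without ZT6 and ZT18 (added after the data were seen), and 0 to 4 with single libraries left out in meta2d. The count was 0 without control ZT10 replicate 2 or ZT14 replicate 1, 1 without ZT18 replicate 1 or 2, and 4 without ZT2 replicate 2. At q under 0.6, 0 to 1 member was called with single libraries left out, the 1 being Slc25a5 without control ZT22 replicate 2, and an edgeR cosinor with the library number series as a covariate called 1, Slc25a20. The shares of all genes called in these fits are not given here, so neither call is read as a result about the carriers. In mutants, an edgeR cosinor gave 1 member at an unadjusted p under 0.05, as it did with the number series as a covariate, with a replicate block and without ZT6 and ZT18, and single libraries left out gave 0 to 1.

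In the ZT6 and ZT18 libraries the 1 member higher became 2 (Slc25a25 added) with PORT's normalization alone, with library sizes without mitochondrially encoded genes, with cosine and sine as covariates and with a replicate block, and 0 in controls alone and with the i5 index as a covariate. With single libraries left out it was 0 to 2, and 0 only without control ZT18 replicate 1. The 4 lower became 1 in controls alone (Slc25a37), 2 with the i5 index (Slc25a18 and Slc25a45), 6 with DESeq2 (Slc25a13 and Slc25a4 added) and 5 with a replicate block (Slc25a4 added), and 3 to 5 with single libraries left out. Slc25a13 had a mean of 3.1 reads in the ZT6 and ZT18 libraries and reached the read filter through the libraries of the other times. Its addition is therefore no support. Slc25a18 and Slc25a37 were called in each of the 24 fits that left out 1 library. Slc25a34 was called in them too, but it could be tested only through the other 16 libraries, so this is no support. Slc25a23 was lost in 16 of 24 such fits, where its log2 difference stayed between −0.39 and −0.30. By the longest transcript in place of the exon union, Slc25a4, Slc25a5 and Slc25a3 still led, at 506, 407 and 193 reads per kb in controls, while Slc25a39 went from rank 7 to 4 (122 reads per kb) and Slc25a23 from 8 to 5 (109), and Slc25a24 went from rank 4 to 8. Without the 3 libraries with numbers apart (added after the data were seen) the counts for genotype, for the difference in rhythm and for the ZT6 and ZT18 libraries were within 1.5 times those reported. The edgeR cosinor in mutants then gave 0 members at an unadjusted p under 0.05 in place of 1, and the members of the difference in rhythm became Slc25a20 and Slc25a30. For the counts under other settings in this section, genotype and rhythm included, the shares of all genes called are not given here. Those counts are therefore not read as results about the carriers. The cause of each move was not tested. Counts below 20 reads limit Slc25a2, Slc25a13, Slc25a14, Slc25a26, Slc25a29, Slc25a34 and Slc25a47, and the original sequencing depth is unknown.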
